A study of Homo sapiens with 83 samples.

Results

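Polycomb repressive complex 2 (PRC2) is the enzyme complex that methylates lysine 27 of histone H3, a mark of silenced developmental genes. Its core holds a methyltransferase, EZH2 in dividing cells or the less active EZH1, together with SUZ12, the scaffold, EED, which binds the methylated histone and stimulates the enzyme, and a histone-binding subunit, RBBP4 or RBBP7. Accessory subunits divide the complex into a form with a Polycomb-like protein (PHF1, MTF2 or PHF19), to which EPOP can bind, and a form with JARID2 and AEBP2. EPOP also binds Elongin BC and USP7, and is known as a regulator of PRC2 at its target genes. The members described here were the genes listed under the symbols EPOP, EZH1, EZH2, SUZ12, EED, JARID2, MTF2, PHF19, AEBP2 and RBBP7. All 10 were found, each as 1 entry, among the 60237 genes of the series. EPOP was selected on its rise in MYC-ON in both cell lines, so its values in that comparison are given as a description with no test. The other 9 were taken for their place in the complex.

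The data were RNA-sequencing profiles of 83 libraries. Both cell lines, SHEP and SKNAS, derive from human neuroblastoma and carry N-MYC-ER, in which N-MYC is joined to an estrogen receptor domain, so that the protein is made all the time and becomes active with 4-hydroxytamoxifen (4OHT). Cells received ethanol (MYC-OFF) or 4OHT (MYC-ON) for 24 h, then dexamethasone to set the circadian clock, and RNA was collected every 4 h from circadian time (CT) 24 to CT76, CT being the hours after dexamethasone. SHEP had 28 MYC-OFF and 28 MYC-ON libraries in 2 replicate series, and SKNAS had 14 MYC-OFF and 13 MYC-ON libraries in 1 series, with CT76 in MYC-OFF only. Every group carried N-MYC-ER and received dexamethasone, and there was no 4OHT-treated group without N-MYC-ER here, so the effects of 4OHT and of active N-MYC cannot be told apart. MYCN itself was between 255 and 688 TPM (transcripts scaled by length and to a fixed library total) in SHEP. In SKNAS it was between 13.1 and 1050 TPM, and these values count the transgene. Its median was lower in MYC-ON than in MYC-OFF, at 353 and 560 TPM in SHEP and at 309 and 612 TPM in SKNAS. The ranges of the conditions overlapped in both lines. Of the adrenergic neuroblastoma markers, PHOX2A was at 0 in 27 of 28 SHEP MYC-OFF libraries and at 139 to 287 TPM in SKNAS MYC-OFF. The mesenchymal markers summed to 3280 to 5310 TPM in SHEP and 673 to 2630 TPM in SKNAS, most of it VIM, while PRRX1 went the other way, at 0.106 to 1.84 TPM in SHEP MYC-OFF and 17.2 to 108 TPM in SKNAS MYC-OFF.

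The values were TPM, which are scaled per gene length and to a fixed total, so the number of reads behind each library is unknown. Taken per library, the median log2(TPM + 1) of the genes was even in SHEP, at 3.93 to 4.17, but ran from 2.97 to 4.38 in SKNAS MYC-OFF and from 2.76 to 4.25 in SKNAS MYC-ON. A median of at least 3.8 was reached by 10 of 14 SKNAS MYC-OFF libraries and by 3 of 13 SKNAS MYC-ON libraries, so the library median moved with the condition, and SKNAS changes are given below also with this median held. Unless said otherwise, changes are differences of log2(TPM + 1), so those of low genes come out too small, a gene was tested where its mean was at least 1 TPM, and it was called where limma's adjusted p did not exceed 0.05, with a change of at least 0.15. Every time point counted as a replicate, so p-values measure the spread among time points of 2 experiments in SHEP and 1 in SKNAS. In bulk RNA, a lower share of cells that express a gene and less RNA per cell cannot be told apart.

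EPOP is a gene with a single exon on chromosome 17 (GRCh38, 38671703 to 38674957, minus strand, ENSG00000273604). In SHEP it was at 3.67 to 6.75 TPM in MYC-OFF (median 5.50) and at 13.4 to 46.0 TPM in MYC-ON (median 34.9). In SKNAS it was at 5.21 to 14.9 TPM in MYC-OFF (median 12.1) and at 53.3 to 94.9 TPM in MYC-ON (median 66.6). In neither line did MYC-ON and MYC-OFF libraries overlap, and EPOP was higher in MYC-ON at 28 of 28 matched time points in SHEP and 13 of 13 in SKNAS. The means were 5.41 ± 0.686 (SD, n = 28) and 33.6 ± 8.62 (SD, n = 28) in SHEP, a ratio of 6.21, and 10.8 ± 3.11 (SD, n = 14) and 71.0 ± 12.6 (SD, n = 13) in SKNAS, a ratio of 6.60. The ratio was 6.89 in SHEP series 1 and 5.59 in series 2. By its log2 change, 2.39 in SHEP and 2.67 in SKNAS, EPOP ranked 15th of 14362 genes tested in SHEP and 20th of 13886 in SKNAS. None of the 31-base stretches of its transcript was found in transcripts of another gene, whereas 14% of those of SUZ12 were, the largest share among the members, mostly in the pseudogene SUZ12P1. RBBP7 overlaps with TXLNG on the opposite strand, and 1.99% of its 31-base stretches were also in transcripts of TXLNG, where reads of the genes could be exchanged.

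**Figure D1:**
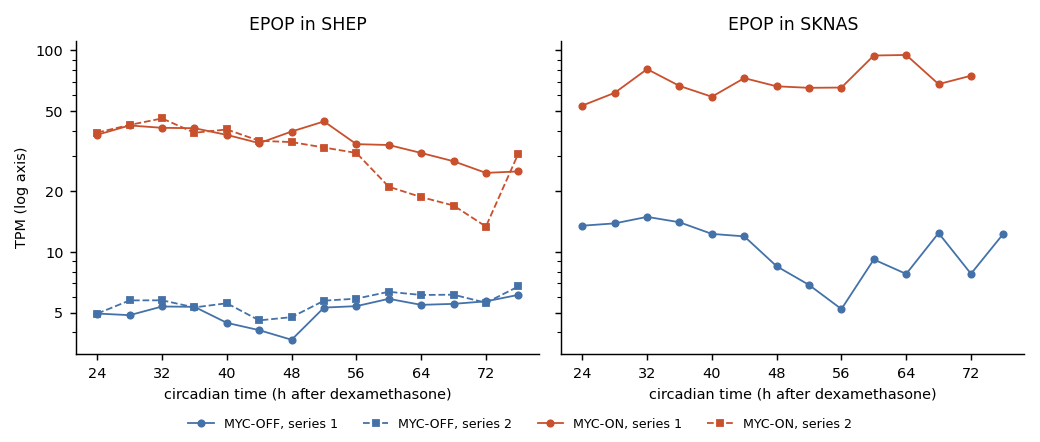
EPOP level (TPM, log axis) against circadian time in hours in SHEP (left) and SKNAS (right), with 1 point per library, MYC-OFF in blue and MYC-ON in red, and the series told apart by line and marker. MYC-ON lies above MYC-OFF at every time point in both lines, and in SHEP MYC-ON it declines after CT56, with series 2 at 13.4 TPM at CT72 and 30.8 TPM at CT76.

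The MYC-OFF levels of EPOP entered its selection through the rise, so the difference between lines is a description too. In MYC-OFF it was 0.83 higher in SKNAS than in SHEP on the log2 scale, where line and experiment cannot be told apart. The SKNAS libraries under a median of 3.8 were at 5.21 to 7.80 TPM and the others at 8.5 to 14.9 TPM, and with the latter alone the difference was 1.07. In MYC-ON the means of 33.6 and 71.0 TPM stood in the same order.

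The order of the members by level, which TPM allows because it is per length, was led by RBBP7 in all 4 groups. In SHEP MYC-OFF, RBBP7 was at 192 ± 9.98 TPM and PHF19 at 33.4 ± 4.16 TPM (SD, n = 28), followed by AEBP2, EZH2, SUZ12 and EED at means from 21.8 to 24.2 TPM, whose libraries overlapped. MTF2 (13.7), EZH1 (9.63) and JARID2 (8.41 TPM) came next, and EPOP was last of the 10. In MYC-ON EPOP was in the third place in both lines. In SHEP MYC-ON its libraries overlapped with those of PHF19 and AEBP2, the neighbours in the order. In SKNAS MYC-OFF, PHF19, a Polycomb-like subunit that brings PRC2 to CpG islands, was at 121 ± 14.4 TPM (SD, n = 14) and EZH2 at 39.0 ± 9.68 TPM, while EPOP was in the eighth place and overlapped with EED, SUZ12 and EZH1.

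**Figure D2:**
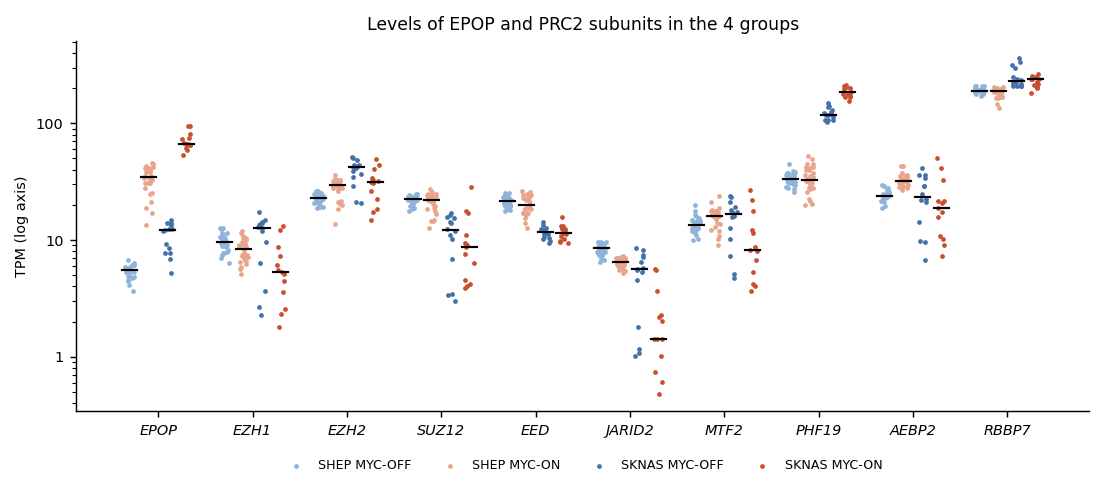
Level (TPM, log axis) of the 10 members in each library of the 4 groups, with black bars at the group medians. EPOP changes its place from the lowest member in SHEP MYC-OFF (median 5.50 TPM) to near PHF19 and AEBP2 in SHEP MYC-ON (median 34.9 TPM), and the SKNAS groups spread more widely than the SHEP groups for EZH1, SUZ12, JARID2, MTF2 and AEBP2.

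The sequence upstream of the members was read from RefSeq windows (GRCh38.p14), which were matched for 9 of the 10 members, all but EPOP, in 13 windows of the 250 bases before a start site in RefSeq. Of these start sites 8 were within 1000 bases of the 5′ end of the gene as Gencode draws it, and those of AEBP2, EED and PHF19 lay 17708 to 43541 bases inside it. N-MYC is known to bind the E-box CACGTG, which is the same on both strands, and the variant CACGCG, searched here on both strands (CACGCG and CGCGTG). The letters of the E-box and of the variant are different words, so no match is counted under both. CACGTG was in 0 of the 13 windows and in 6.34% of all 35116 windows, and CACGCG was in 5 of 13, in EZH1, EZH2, SUZ12 and RBBP7, and in 9.72% of all. A match is a description of letters and its absence says nothing of binding. Shown are JARID2 (chr6:15245819-15246068, plus strand), called lower in both lines, PHF19 (chr9:120877189-120877438, minus strand), called higher in SKNAS, whose start site lies 17708 bases inside the Gencode gene, and the scaffold SUZ12 (chr17:31936757-31937006, plus strand), whose variant E-box is in capitals; none of these bases lies in an annotated exon.
JARID2: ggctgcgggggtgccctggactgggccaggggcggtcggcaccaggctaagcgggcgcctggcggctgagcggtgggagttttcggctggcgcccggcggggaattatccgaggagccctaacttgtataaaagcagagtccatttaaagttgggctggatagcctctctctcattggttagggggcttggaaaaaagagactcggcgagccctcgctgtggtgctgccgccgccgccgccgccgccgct
PHF19: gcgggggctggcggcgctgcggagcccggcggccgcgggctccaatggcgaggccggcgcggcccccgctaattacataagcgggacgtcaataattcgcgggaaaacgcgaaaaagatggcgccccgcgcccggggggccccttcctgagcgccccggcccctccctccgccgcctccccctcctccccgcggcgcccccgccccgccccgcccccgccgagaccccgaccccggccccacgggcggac
SUZ12: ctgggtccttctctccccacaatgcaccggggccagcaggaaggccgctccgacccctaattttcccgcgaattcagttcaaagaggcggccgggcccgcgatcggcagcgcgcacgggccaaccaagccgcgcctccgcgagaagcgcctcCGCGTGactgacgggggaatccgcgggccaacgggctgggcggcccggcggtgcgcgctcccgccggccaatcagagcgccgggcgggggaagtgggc
The SUZ12 match starts 98 bases before the start site and reads CGCGTG on the strand of the gene.

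In SHEP, the subunits moved far less than EPOP. AEBP2, EZH2 and MTF2 rose in MYC-ON, JARID2 and EZH1 fell, and SUZ12, EED, PHF19 and RBBP7 were not called, so that 3 of the 9 other members were higher and 2 lower. Over all genes, 33.0% were called higher and 38.9% lower, so the members' counts were near or under the background. Their changes ran from -0.34 to 0.43 with a median of -0.077, beside -0.036 over all genes.

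The partners of the JARID2 and AEBP2 form moved in opposite directions. AEBP2, a zinc finger subunit that stabilizes the complex, was at 18.6 to 29.4 TPM in MYC-OFF (median 24.0) and at 27.1 to 43.0 TPM in MYC-ON (median 32.3). It was higher in MYC-ON at 28 of 28 matched time points, and in series 1 the groups did not overlap. Its change was 0.43 ± 0.043 (SE; limma adjusted p = 2.08e-12). JARID2, which binds nucleosomes and helps to recruit the complex, was at 6.48 to 9.58 TPM in MYC-OFF (median 8.55) and at 5.26 to 7.34 TPM in MYC-ON (median 6.44). It was lower at 28 of 28 matched time points, and in series 2 the groups did not overlap. Its change was -0.34 ± 0.032 (SE; limma adjusted p = 3.68e-13). With the 2 series means per condition as the replicates, these were the members still called, at a limma adjusted p of 0.0152 for AEBP2 and 0.0188 for JARID2.

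Of the catalytic subunits, EZH2 was at 18.8 to 26.5 TPM in MYC-OFF (median 22.9) and at 13.7 to 36.3 TPM in MYC-ON (median 29.6), with 21 of 28 MYC-ON libraries at or above the highest MYC-OFF library and 2 below the lowest. Its change was 0.27 ± 0.060 (SE; limma adjusted p = 6.74e-05). EZH1 was at 6.30 to 12.6 TPM (median 9.61) and at 5.12 to 12 TPM (median 8.45), a change of -0.20 ± 0.069 (SE; limma adjusted p = 0.00959), and the groups overlapped. The ratio of EZH2 to EZH1 was 2.42 ± 0.434 in MYC-OFF and 3.58 ± 1.13 in MYC-ON (SD, n = 28). MTF2, a Polycomb-like subunit that binds unmethylated CpG DNA, changed by 0.18 ± 0.066 (SE; limma adjusted p = 0.0114). These 3 calls were lost with the series means as replicates, at limma adjusted p = 0.0516 for EZH2, 0.142 for MTF2 and 0.210 for EZH1. Without series 2 the changes were 0.17 for EZH2 and 0.076 for MTF2, both not called, and without series 1 that of EZH1 was -0.17, not called.

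The remaining core subunits and PHF19 were not called in SHEP. SUZ12 changed by -0.092 (95% interval -0.206 to 0.0225), EED by -0.11 (-0.216 to 0.00328), RBBP7 by -0.077 (-0.142 to -0.0126, under the size asked for) and PHF19 by -0.0053 (-0.133 to 0.123). PHF19 took the opposite sign in 4 alternatives, among them rescaling of the libraries by median of ratios, at 0.039, and the time points up to CT56, at 0.22, where it was called. EPOP per SUZ12 was 0.244 ± 0.0310 in MYC-OFF and 1.64 ± 0.448 in MYC-ON (SD, n = 28).

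**Figure D3:**
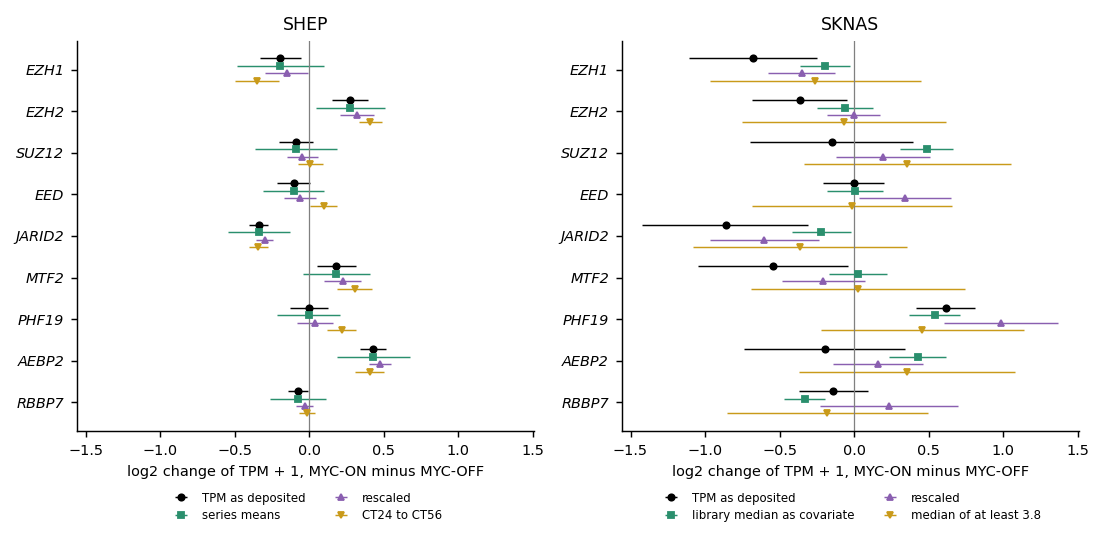
Log2 change of TPM + 1, MYC-ON minus MYC-OFF, of the 9 members other than EPOP in SHEP (left) and SKNAS (right), with 95% intervals of the limma fit, under the deposited scale and 3 alternatives told apart by colour. In SHEP the alternatives lie close together for AEBP2 and JARID2, and in SKNAS the points of SUZ12 and AEBP2 lie on both sides of 0 depending on the treatment of the library median.

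The SHEP difference was not constant over culture time. In MYC-ON, 7 of 10 members declined with time (21.3% of all genes rose and 38.9% declined, the rising ones being 35.3% of those called, or 48.4% after rescaling), and in MYC-OFF none did while EED rose by 0.10 per 24 h (limma adjusted p = 0.0350; 4.35% of all genes rose and 7.35% declined, a rising share of 37.2% of those called, or 51.5% after rescaling). PHF19 declined by 0.49 ± 0.045 (SE) per 24 h in MYC-ON (limma adjusted p = 1.30e-13), EPOP by 0.47 ± 0.059 (1.46e-09), EED by 0.33 ± 0.033 (1.89e-12), EZH2 by 0.26 ± 0.054 (3.56e-05), SUZ12 by 0.21 ± 0.045 (6.32e-05), MTF2 by 0.17 ± 0.066 (0.0245) and RBBP7 by 0.115 ± 0.0293 (0.000673). JARID2, AEBP2 and EZH1 were not called, but after rescaling AEBP2 (0.14) and EZH1 (0.18) rose. EPOP in MYC-OFF had a slope of 0.12 per 24 h (adjusted p = 0.222), and the intervals of EPOP's slopes, -0.0033 to 0.234 and -0.588 to -0.350, did not overlap. The slope in MYC-ON minus that in MYC-OFF was called lower for 6 members, EPOP at -0.58, PHF19 at -0.45, EED at -0.43, EZH2 at -0.22, SUZ12 at -0.21 and RBBP7 at -0.11, and higher for EZH1 at 0.246, where 27.3% of all genes were called lower and 16.1% higher (37.0% of the calls higher, or 47.3% after rescaling).

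The levels after CT56 were the lowest of several members in MYC-ON, and the series differed in which subunits were low. PHF19 was already falling before, from 52.8 and 44.8 TPM at CT24 in series 1 and 2 to 36.1 and 29.9 TPM at CT56. In MYC-ON series 1, EZH2 was at 29.1 to 32.9 TPM from CT24 to CT56 and at 13.7 to 21.7 TPM from CT60 to CT76, and SUZ12 at 18.4 to 24.0 and then 12.6 to 17.6 TPM, with no overlap between early and late libraries. In MYC-ON series 2, EZH2 stayed at 28.6 to 33.3 TPM from CT60 to CT72 and was at 19.98 TPM at CT76, and SUZ12 was at 23.1 to 27.5 TPM and then at 14.6 TPM. EPOP showed the larger step in series 2, from 31 to 46.0 TPM up to CT56 to 21.1, 18.7, 17.0 and 13.4 TPM at CT60 to CT72, and was back at 30.8 TPM at CT76. EED and PHF19 were lower late in both series, with no overlap with the early libraries of their series, EED at 14.1 to 18.8 TPM in series 1 and 12.6 to 18.4 TPM in series 2, PHF19 at 19.8 to 31.8 TPM and 20.3 to 27.9 TPM. At CT76, series 2 thus lay closer to series 1 than to its own CT72 library for EPOP, EZH2, SUZ12, EED, MTF2 and RBBP7. For PHF19, AEBP2, JARID2 and EZH1 it lay closer to that CT72 library. The labels were used as given; whether they are right for the late MYC-ON libraries was not tested, and the late values and slopes rest on them.

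**Figure D4:**
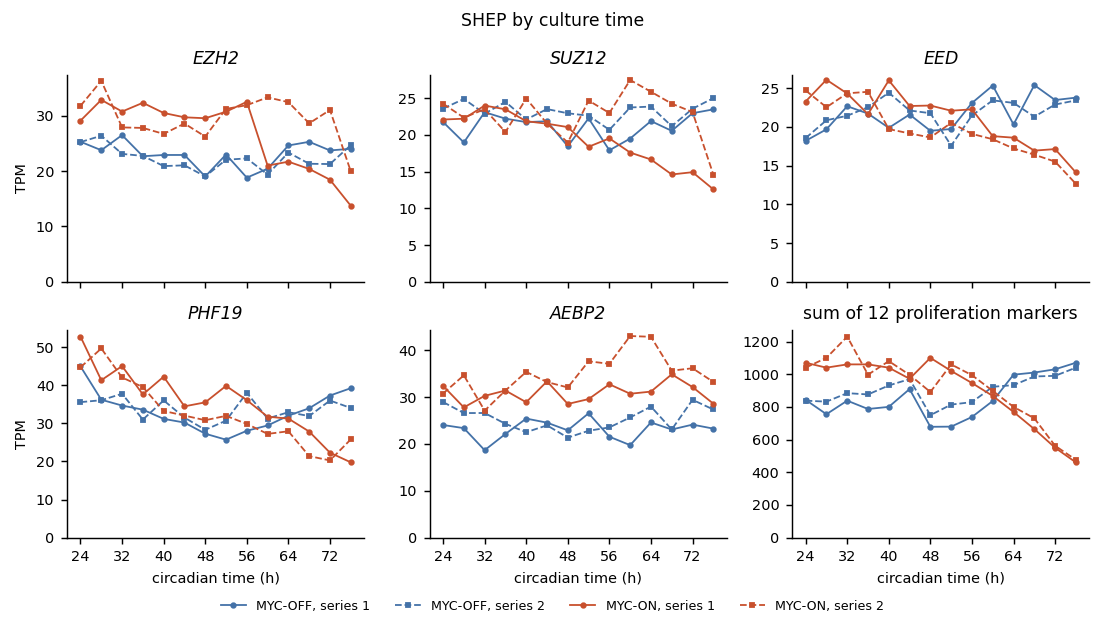
TPM of EZH2, SUZ12, EED, PHF19 and AEBP2, and the summed TPM of 12 proliferation markers, against circadian time in hours in the SHEP series, MYC-OFF in blue and MYC-ON in red. The marker sum falls in both MYC-ON series, to 460 and 476 TPM at CT76, while EZH2 and SUZ12 fall from CT60 in series 1 and at CT76 in series 2.

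The sum of 12 proliferation markers also declined in MYC-ON, but not in step with every member. It was 1070 and 1040 TPM at CT24 in the MYC-ON series and 460 and 476 TPM at CT76, against 843 and 838 and then 1070 and 1040 TPM in the MYC-OFF series, and 11 of the 12 markers declined in MYC-ON with none rising. In MYC-ON series 2 the sum fell from 898 TPM at CT60 to 562 TPM at CT72, while EZH2 stayed at 28.6 to 33.3 TPM and SUZ12 at 23.1 to 27.5 TPM. At CT76 of that series the sum was lowest, while EPOP was back at 30.8 TPM. Time since dexamethasone, time since 4OHT and time in culture cannot be told apart, and the part of proliferation in the members' decline was not tested. Without series 1, the difference in slope was still called for EPOP (-0.73), EED (-0.41) and PHF19 (-0.46), and the SHEP slope difference was lost for EZH2 (-0.029), SUZ12 (-0.046), EZH1 (0.22) and RBBP7 (-0.11). Without series 2, EZH2 (-0.41) and SUZ12 (-0.38) were called as well. Without CT76, EPOP, EED and PHF19 were called and no other member. With the time points up to CT56, a choice made after seeing the data, 0 of 10 members differed in slope by limma (2 at an unadjusted p under 0.05), while EPOP (-0.20), EED (-0.20) and PHF19 (-0.42) still declined in MYC-ON and PHF19 (-0.30) and EZH2 (-0.24) declined in MYC-OFF.

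In SKNAS, 1 of the 9 members was called higher in MYC-ON and 2 lower on the deposited scale, beside 13.7% of all genes higher and 34.4% lower. PHF19 was at 103 to 150 TPM in MYC-OFF (median 118) and at 154 to 215 TPM in MYC-ON (median 185), without overlap. It was higher at 13 of 13 matched time points, and its change was 0.61 ± 0.095 (SE; limma adjusted p = 9.10e-05). With the library median as a covariate the change was 0.54 (limma adjusted p = 4.31e-05), and after rescaling the libraries 0.99. Among the libraries with a median of at least 3.8, PHF19 was at 106 to 150 TPM in the 10 of MYC-OFF and at 154 to 179 TPM in the 3 of MYC-ON. The fit on those libraries, which compares conditions at CT32 and CT44 alone, gave 0.46 and called 0 of 9 members by limma, with 0 at an unadjusted p under 0.05.

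JARID2 was called lower in SKNAS, at 1.02 to 8.57 TPM in MYC-OFF (median 5.60) and 0.479 to 5.64 TPM in MYC-ON (median 1.43), a change of -0.86 ± 0.261 (SE; limma adjusted p = 0.0138). With the library median as a covariate it was -0.22 (limma adjusted p = 0.0580). EZH1 was at 2.27 to 17.5 TPM in MYC-OFF (median 12.8) and 1.79 to 13.3 TPM in MYC-ON (median 5.29), a change of -0.68 ± 0.204 (SE; limma adjusted p = 0.0130). The covariate brought EZH1 to -0.19 (limma adjusted p = 0.0499). Both ranges overlapped between conditions. JARID2 was therefore called lower in both lines on the deposited scale, and the sign was kept in SKNAS under rescaling (-0.60) and the covariate.

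Of the 10 members, 6 followed the library median closely in SKNAS. Over the 27 SKNAS libraries, with group means removed, Pearson's r with the library median was 0.980 for AEBP2, 0.977 for SUZ12, 0.976 for JARID2, 0.961 for MTF2, 0.941 for EZH1 and 0.939 for EZH2, against 0.607 for EPOP, 0.350 for EED, -0.384 for PHF19 and -0.793 for RBBP7. The points share their libraries, and the median includes every gene, so these are descriptions. SUZ12 was at 3.02 to 6.86 TPM in the 4 MYC-OFF libraries with a median under 3.8 and at 10.1 to 17.2 TPM in the other 10, and AEBP2 at 6.71 to 14.3 and 21.4 to 41 TPM. RBBP7 went the other way, at 299 to 366 and 208 to 248 TPM. EPOP and RBBP7 deviated in opposite directions across these libraries (r = -0.876, n = 27). By the length of the annotated main transcript, JARID2 (6003 bases), AEBP2 (5830) and SUZ12 (4495) were among the longest members, and RBBP7 (2281) and EED (2088) the shortest, but PHF19 (4149) and MTF2 (4075) were alike in length and had r of opposite sign. The part of transcript length or RNA quality in this was not tested.

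**Figure D5:**
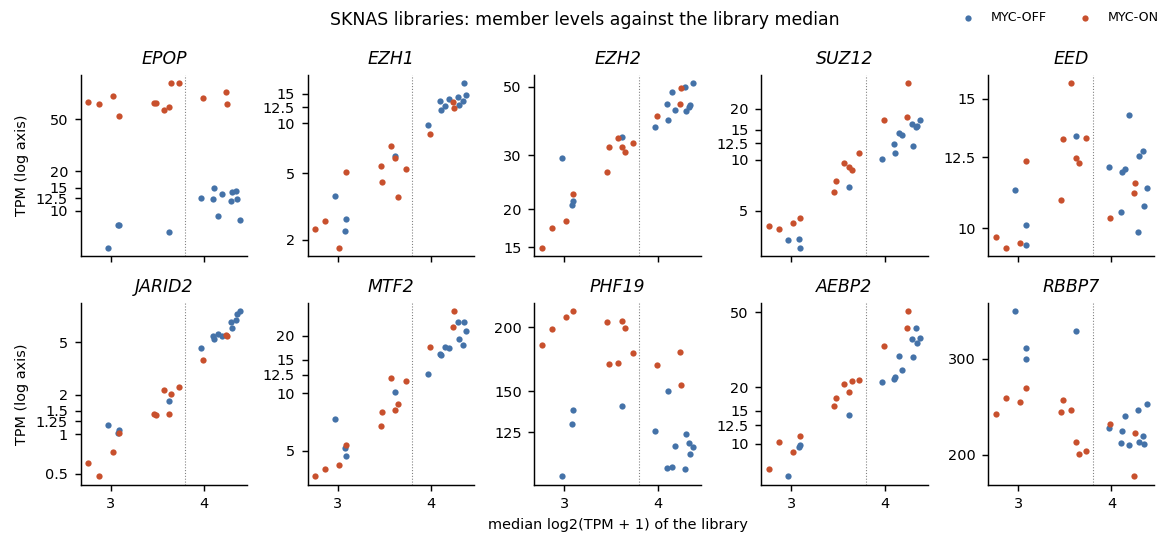
TPM (log axis) of each member against the median log2(TPM + 1) of its library in SKNAS, with 1 point per library, MYC-OFF in blue and MYC-ON in red, and a dotted line at 3.8. EZH1, EZH2, SUZ12, JARID2, MTF2 and AEBP2 rise with the median in both conditions, RBBP7 does not, and EPOP and PHF19 are separated by condition at all medians.

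The signs of 5 members in SKNAS depended on the scale. Over all SKNAS genes the median change was -0.29 on the deposited scale, 0.032 after rescaling and 0.013 with the covariate, and of the genes called 28.5%, 53.6% and 52.0% were higher. SUZ12 changed by -0.15 as deposited, 0.19 rescaled and 0.49 with the covariate, where it was called (limma adjusted p = 0.000160). AEBP2 went from -0.20 to 0.16 and 0.43, called with the covariate (limma adjusted p = 0.00101), as it was in SHEP. MTF2 was at -0.55, -0.21 and 0.026, EED at -0.0037, 0.34 and 0.0047, and RBBP7 at -0.14, 0.23 and -0.33, the last of these called. EZH2 stayed below 0 at -0.37, -0.0035 and -0.061 and was called in none of them. EPOP was at 2.67, 3.02 and 2.90.

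Whether the response to 4OHT differed between the lines was asked with an interaction term. Each line had its own series, so a difference between lines cannot be told apart from one between experiments. On the deposited scale 1 member was called higher in SKNAS relative to SHEP and 5 lower, where 13.4% and 38.1% of all genes were; the higher calls made up 26.0% of all calls as deposited, 51.0% after rescaling and 53.9% with the covariate. PHF19 had the larger change in SKNAS by 0.62 ± 0.109 (SE; limma adjusted p = 3.78e-06), which was 0.90 after rescaling and 0.585 with the covariate, called in each. EZH2 had the smaller change by -0.64 ± 0.126 (limma adjusted p = 2.97e-05), with -0.37 and -0.36 under the same alternatives, both called. MTF2 (-0.73), AEBP2 (-0.63), JARID2 (-0.52) and EZH1 (-0.485) were called as deposited, but with the covariate they were at -0.23, -0.083, 0.026 and -0.099, and not called. SUZ12, at -0.058 as deposited, was called at 0.50 with the covariate, and EED, at 0.10, was called at 0.37 after rescaling. With the SKNAS libraries at a median of at least 3.8, an alternative added after seeing the data, 0 of 9 members were called by limma, 1 was at an unadjusted p under 0.05, and PHF19 was at 0.46 and EZH2 at -0.34.

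The lines also differed without active N-MYC, but they come from separate series, so line and experiment cannot be told apart. In MYC-OFF, EZH2, PHF19 and RBBP7 were higher in SKNAS and SUZ12, EED and JARID2 lower, 3 and 3 of the 9 members other than EPOP, where 32.1% and 46.4% of all genes were called. PHF19 was higher by 1.83 ± 0.057 (SE; limma adjusted p = 9.77e-24) and EZH2 by 0.71 ± 0.086, while SUZ12 was lower by 1.10 ± 0.143 and EED by 0.86 ± 0.057. These 6 calls kept their sign under rescaling, without either SHEP series and with SKNAS libraries at a median of at least 3.8, where EZH1 (0.44), MTF2 (0.43) and AEBP2 (0.275) were called higher as well. In MYC-ON, PHF19 and RBBP7 were called higher and SUZ12, EED, JARID2, MTF2, AEBP2 and EZH1 lower, 2 and 6 of 9 members, beside 26.0% and 58.3% of all genes, and the higher share of calls was 30.9%, or 47.4% after rescaling. At a median of at least 3.8 the MYC-ON difference was reversed for EZH1 (0.61), MTF2 (0.35) and AEBP2 (0.36), SUZ12 (-0.11) and RBBP7 (0.14) were not called, and EZH2, at 0.0013 as deposited, was called at 0.56, as it was after rescaling (0.49). The summed level of PHF1, MTF2 and PHF19 over that of JARID2 and AEBP2 was, in SHEP, 1.93 ± 0.234 without and 1.54 ± 0.310 with 4OHT (SD, n = 28), and 7.12 ± 4.40 (SD, n = 14) and 12.6 ± 7.38 (SD, n = 13) in SKNAS. In the SKNAS libraries with a median of at least 3.8 it was 4.57 ± 1.17 (SD, n = 10) in MYC-OFF and 4.49 ± 0.977 (SD, n = 3) in MYC-ON.

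Over culture time in SKNAS, no member was called by limma in either condition or in their difference. Of all genes 0.0504% were called rising and 0.101% declining in MYC-OFF, 0.0360% and 0.130% in MYC-ON, and 0.0288% and 0.0504% in the difference. At an unadjusted limma p under 0.05 there were 3 of 10 members in MYC-OFF, beside 4929 of 13886 genes. There were 1 of 10 members in MYC-ON, beside 1011 genes, and 1 of 10 in the difference, beside 402 genes. EPOP had slopes of -0.30 and 0.20 per 24 h. A 24 h rhythm, tested by a cosine curve with the trend removed, was called for 0 of 10 members in each of the 4 groups by limma. The share of all genes that passed was 0.0631% for SHEP MYC-OFF, 0.0140% for SHEP MYC-ON and 0.00% for both SKNAS groups. EPOP in SHEP MYC-OFF, with a peak-to-trough difference of 0.23 and a peak at CT9, was the single member at an unadjusted limma p under 0.05 (adjusted p = 0.295). In that group 1400 of 14264 genes tested were under the same unadjusted threshold.

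The partners of EPOP and of the complex were read from lists chosen for their function. Their counts stand beside 33.0% of all genes called higher and 38.9% lower in SHEP, and 13.7% and 34.4% in SKNAS as deposited. Of the Elongin and USP7 partners, 3 of 4 rose in SHEP: ELOA, the transcription-elongating Elongin subunit, by 0.64 ± 0.037 (SE), ELOC by 0.42 ± 0.041 and the deubiquitinase USP7 by 0.22 ± 0.046, while ELOB was at -0.11. In SKNAS ELOC was called at 0.39 ± 0.110, and ELOA (-0.021), USP7 (-0.14) and ELOB (0.32) were not. With the library median as a covariate, ELOA (0.77) and USP7 (0.46) were called higher and ELOB (-0.25) lower in SKNAS. Of the other PRC2 subunits and cofactors in SHEP, RBBP4 fell by 0.21 ± 0.051 and PHF1 by 0.60 ± 0.053, the inhibitor EZHIP rose by 0.36 ± 0.056 from a median of 1.01 TPM to 1.52 TPM, and LCOR (0.18) and LCORL (-0.034) were not called. In SKNAS 0 of 4 tested were called by limma, 0 at an unadjusted p under 0.05, with RBBP4 at -0.74 (0.29 with the covariate), PHF1 at -0.31 (0.051 after rescaling), LCORL at -0.22 (0.10 after rescaling) and LCOR at 0.060 (0.85 with the covariate, called higher), and EZHIP was at most 0.392 TPM. RBBP4 ranged from 12.9 to 258 TPM over the SKNAS libraries.

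Of the enzymes that oppose Polycomb marks, KDM6A, an H3K27 demethylase, fell in SHEP (-0.27 ± 0.050, SE) and SKNAS (-0.69 ± 0.140). KDM6B, the inducible H3K27 demethylase, rose in SHEP by 0.87 ± 0.084 and was at 0.056 ± 0.342 in SKNAS, and ASXL1, a partner of the deubiquitinase BAP1, rose by 0.19 ± 0.045 in SHEP and was at -0.24 in SKNAS. With the covariate KDM6B was called higher in SKNAS, at 0.92. BAP1 (0.017 and 0.21) and ASXL2 (-0.10 and -0.57) were not called in either line on the deposited scale, while BAP1 in SKNAS was called at 0.57 after rescaling, and ASXL3 was not tested at its near-zero level. Of the 9 Trithorax-type and H3K36 methyltransferases 0 were called in SHEP by limma with the size asked for, 1 being at an unadjusted p under 0.05, where they ran from -0.15 to 0.15, and in SKNAS NSD2, named after its value was seen, was called lower at -1.04 on the deposited scale and was at -0.11, not called, with the covariate, where 2 others were called higher. Of the subunits of Polycomb repressive complex 1, which ubiquitinates histone H2A, 8 of 23 tested were higher and 6 lower in SHEP, and 4 of 25 higher and 9 lower in SKNAS on the deposited scale. Of all genes, 33.0% were called higher and 38.9% lower in SHEP, and 13.7% and 34.4% in SKNAS. In SKNAS the balance of these subunits turned round, as that of all genes did. It became 9 higher and 5 lower after rescaling and 11 higher and 5 lower with the covariate, where 27.6% and 23.9%, and 28.3% and 26.1%, of all genes were called. KDM2B, which brings a form of that complex to CpG islands, rose by 1.00 ± 0.038 in SHEP and 0.91 ± 0.216 in SKNAS, and SCML2 rose by 0.73 in both.

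HOX genes, the classical targets of PRC2, were 6 higher, 19 lower and 4 not called of 29 tested in SHEP, with a median change of -0.29 beside -0.036 over all genes, and 1 higher, 5 lower and 3 not called of 9 tested in SKNAS (2 higher and 4 lower after rescaling or with the covariate), with a median of -0.30 beside -0.29. For these counts and those below, the shares of all genes were 33.0% higher and 38.9% lower in SHEP, and 13.7% and 34.4% in SKNAS as deposited. HOXC6 fell by 1.06 ± 0.047 (SE) and 1.12 ± 0.189, HOXD11 by 0.62 and 1.21, and HOXD10 by 0.39 and 0.92 in SHEP and SKNAS. Of the 12 proliferation markers 3 were higher and 3 lower in SHEP and 1 higher and 3 lower in SKNAS, where rescaling gave 5 higher and 1 lower and the covariate 4 higher and 0 lower, with CCNE1 at 0.82 and 0.63 and MCM5 at -0.74 and -0.53, the latter at -0.17 and not called in SKNAS after rescaling. Of the adrenergic markers 1 of 2 tested was higher in SHEP and 4 of 4 lower in SKNAS, with HAND2 at 0.72 and -0.99, and of the 7 mesenchymal markers 2 were higher and 3 lower in SHEP and 1 higher and 2 lower in SKNAS, where rescaling gave 2 higher and 1 lower and the covariate 4 higher and 1 lower, with FN1 at -2.24 and -1.76 and YAP1 at -0.26 and -0.91, the latter -0.020 with the covariate. Among the members' pseudogenes SUZ12P1, which shares sequence with SUZ12, was at 0.27 in SHEP, called, and -0.21 in SKNAS, and EZH2P1 and RBBP4P1 were not tested at their near-zero levels.

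Over all 83 libraries, the 5 genes among 12305 whose log2 level was most like that of EPOP by Pearson's r were RPIA (0.968), SH2B2 (0.965), MCAT (0.964), PLD6 (0.958) and MRPL4 (0.954), where the median gene had an r of -0.134. With the means of each line, condition and series removed they were RNF187 (0.855), SPR (0.853), TONSL (0.836), PAGR1 (0.833) and PREB (0.823), with a median of 0.279. Among the members in SHEP after the same removal, PHF19 (0.743) and EED (0.647) deviated with EPOP most, and AEBP2 (-0.396) and EZH1 (-0.304) against it (n = 56). These genes share libraries and depth, and the first set also shares the rise in MYC-ON.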

How the data were processed

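RNA was made into polyA-selected libraries and sequenced in 83 samples, and the authors quantified transcripts with Salmon 1.3.0 against a GRCh38 Gencode index and summed them to genes with Tximport. The values the authors deposited are TPM for 60237 genes, scaled per length and to a fixed total, so reads per library are unknown, no count model was used, and the precision comes from the number of samples. Whether counting used strand is not given in the sources used here.

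Samples were grouped by line and condition from their labels. Changes of log2(TPM + 1) were tested in R 4.3.3 by limma 3.58.1, for genes with a mean of at least 1 TPM, with time point as a factor and Benjamini-Hochberg adjustment over all genes tested. Slopes and rhythms were called on an adjusted p of at most 0.05 alone. EPOP's difference between lines in MYC-OFF, planned as a test, is given as a description. The fits were tested on simulated data. Gene positions and transcript lengths are from Gencode release 44 (GRCh38). The 2 SHEP series numbers mark a shared experiment per the design, and pair the samples: over 14362 genes the deviations of series 1 in MYC-OFF and MYC-ON had an r of 0.489. The members and lists were chosen with earlier results of these data known. Named from the lists were all partners, cofactors, demethylases and pseudogenes, and up to 3 genes of each other list with the largest SHEP change among those called in both lines, except for items not reported here. Alternatives were another pseudocount (0.1), no filter on low values, median-of-ratios rescaling, the library median as a covariate, SKNAS libraries with a median of at least 3.8, replicate blocks, series means, an intensity trend and leaving out each SHEP series.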

Additional observations from a re-analysis of the deposited data

Results flagged for a closer look

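The effect of 4OHT differed between the lines, by a limma interaction term on the log2 scale, for 6 members other than EPOP. The SKNAS change minus the SHEP change was 0.619 for PHF19 (adjusted p = 3.78e-06), -0.64 for EZH2 (2.97e-05), -0.727 for MTF2 (0.000514), -0.626 for AEBP2 (0.00167), -0.522 for JARID2 (0.00783) and -0.485 for EZH1 (0.011). Over all genes, 13.4% were called higher and 38.1% lower by the same term. In SKNAS the library median moved with condition. The values of EZH2, MTF2, AEBP2, JARID2 and EZH1 rose with it, while PHF19 had an r of -0.384 with it, group means removed. PHF19 and EZH2 of these 6 were still called with the median as a covariate. With SKNAS libraries at a median of at least 3.8, 0 of 9 members were called by limma. Line and experiment cannot be told apart in this difference.

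The change over culture time in SHEP differed between MYC-ON and MYC-OFF for 7 members, by a limma test of the difference in slope per 24 h. It was -0.584 for EPOP (adjusted p = 1.08e-07), -0.45 for PHF19 (8.64e-08), -0.428 for EED (1.12e-10), -0.221 for EZH2 (0.0162), -0.212 for SUZ12 (0.00518), -0.114 for RBBP7 (0.0225) and 0.246 for EZH1 (0.0245). Over all genes, 27.3% were called lower and 16.1% higher by the same test. Without CT76, 3 members were called lower and 0 higher, and with the time points up to CT56, 0 of 10 were called by limma. All 12 proliferation markers also had the lower slope in MYC-ON, and their part in the members' values was not tested. Every group held more than 10 libraries, so no single library was tested as standing apart.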

How the results depend on the processing

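The depth of each single library is unknown, since TPM carry no reads, and the cause of the changes below was not tested. In SHEP, AEBP2 was called higher and JARID2 lower under all 11 alternatives, and in SKNAS PHF19 was called higher under 5 of 6. With a replicate block by series, or by series and time point, 3 members were called higher and 2 lower in SHEP as without it, so the pairing changed no member's call. With series means as replicates 1 was higher and 1 lower. Leaving out 1 SHEP series gave 1 to 3 members higher and 1 to 2 lower, with PHF19 between -0.0824 and 0.0719. Other SHEP values of opposite sign were PHF19 at 0.0394 (rescaled), 0.046 (without CT76) and 0.216 (up to CT56), and SUZ12 at 0.00641 and EED at 0.0954 (up to CT56). The fits without CT76, up to CT56 and, for the interaction, with SKNAS libraries at a median of at least 3.8 were chosen after seeing the data.

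In SKNAS, members called were 3 higher with the covariate, and 0 higher and 0 lower with medians of at least 3.8, a fit that rests on 2 time points. Values of opposite sign under rescaling, the covariate and the medians of at least 3.8 were 0.192, 0.488 and 0.357 for SUZ12 and 0.159, 0.426 and 0.357 for AEBP2, with EED at 0.34 (rescaled) and 0.00469 (covariate), MTF2 at 0.026 (covariate) and 0.0271 (at least 3.8) and RBBP7 at 0.234 (rescaled). All genes called were 1903 higher and 4772 lower, but 3833 higher rescaled, 3924 higher with the covariate, and 455 and 799 with medians of at least 3.8. In the interaction, 2 members were higher after rescaling, 2 higher and 2 lower with the covariate, and 0 and 0 with medians of at least 3.8. There SUZ12 went to 0.202, 0.5 and 0.449, JARID2 to 0.0262 (covariate) and RBBP7 to 0.22 (rescaled), and all genes called were 1991 and 5664, then 3800 and 3653, 3771 and 3223, and 1012 and 1193.

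Between lines in MYC-OFF, 6 members were higher with medians of at least 3.8, where EZH1 went to 0.438 and AEBP2 to 0.275. EZH1 was also at 0.106 (rescaled) and between -0.141 and 0.0898 with a series left out, where MTF2 was between -0.0092 and 0.0459. Leaving out a series gave 3 higher and 3 lower each time. In MYC-ON, 4 were higher and 2 lower with medians of at least 3.8, where EZH1 went to 0.611, MTF2 to 0.35 and AEBP2 to 0.36. EZH2 was at -0.000881 (pseudocount 0.1) and between -0.0718 and 0.0744 with a series left out, and leaving out a series gave 2 higher and 5 to 6 lower. All genes called were 3808 and 8521, with 5860 higher after rescaling and 4975 lower with medians of at least 3.8.

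For SHEP slopes in MYC-OFF, 0 members were higher without CT76, 0 higher and 2 lower up to CT56, and 0 higher and 0 to 1 lower when a series was left out, and EPOP went to -0.0157 (up to CT56). In MYC-ON, 2 were higher after rescaling, 1 higher without CT76, 3 lower up to CT56, and 0 to 1 higher and 3 to 7 lower when a series was left out, with EZH1 at -0.111 and MTF2 at 0.0828 (up to CT56). For the difference in slope, 0 were higher and 3 lower without CT76, 0 and 0 up to CT56, and 0 higher and 3 to 5 lower when a series was left out. EZH1 went to -0.0352, EZH2 to 0.206, MTF2 to 0.177 and RBBP7 to 0.105 (up to CT56), and JARID2 was between -0.0913 and 0.119 with a series left out. All genes with a slope were 625 and 1056 in MYC-OFF (65 and 79 without series 1, 285 and 651 up to CT56), 3055 and 5589 in MYC-ON (1393 and 2603 up to CT56), and 2306 and 3927 in the difference (436 and 710 up to CT56). In SKNAS, EPOP's MYC-OFF slope was 0.0308 after rescaling, and genes with a slope were 7 and 14 in MYC-OFF (43 and 33 rescaled, 34 and 28 with the covariate), 5 and 18 in MYC-ON (23 and 41, 58 and 149) and 4 and 7 in the difference (7 and 11, 21 and 92). In SHEP MYC-OFF 9 genes were rhythmic, and 15 with a pseudocount of 0.1.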
